A study of Mus musculus with 106 samples.

Results

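The acyl-CoA thioesterases described here are 10 genes of the mouse Acot family, Acot1, Acot2, Acot3, Acot4, Acot5, Acot7, Acot8, Acot11, Acot12 and Acot13, taken by symbol from the 4 deposited count tables, which have 19169 symbols in common. The genes were chosen by name, but with the measured CPM of each temperature against 22 °C in these same libraries known, so the values of the members against 22 °C are given as a description and support nothing about the family. Bulk RNA sequencing was done on 11 tissues of male wild type C57BL/6J mice that were 8 weeks old at the start. Cold-exposed mice spent 5 days each at 18 °C and 14 °C and then 2 weeks at 10 °C, and the labels give their age as week 11. Warm-exposed mice spent 4 weeks at 34 °C and are labelled week 12, and each experiment had its own controls at 22 °C. By the methods the cold mice and their controls came from Janvier, and the warm mice and their controls from Charles River. All quadriceps libraries are labelled week 12, and their 6 controls are labelled as 1 group, which was used here for both temperatures. The names of these controls carry 2 prefixes, QM as in the cold libraries and QC as in the warm ones. The controls may thus come from both experiments and suppliers, which the labels do not say. Each library was a pool of 2 mice, apart from bone marrow with 6 mice per temperature and spinal cord with 5, where every library came from 1 mouse.

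The 106 libraries fell into 31 groups and gave 16 comparisons, 11 at 10 °C and 5 at 34 °C. Library totals ran from 4262403 to 62880248 counts (median 21585677), with the smallest in perigonadal fat (pgVAT) at 22 °C, so low members are read least precisely there. Interscapular brown fat (iBAT), inguinal subcutaneous fat (ingSAT), pgVAT, liver, ileum, spleen, brain and hypothalamus of the cold experiment share a table. Bone marrow and spinal cord have a table each, and the warm experiment and all quadriceps libraries are in another. The sequencing centre differed between the first table and the others, so levels are compared within a table. No 2 libraries held identical counts. Levels are given in counts scaled to a common library total (CPM), and sums of markers are scaled by edgeR's TMM factors as well. The 22 °C brain library of replicate 2 in the cold experiment stood apart, with a TMM factor of 0.752 against 1.026 to 1.074 in the other 5 brain libraries. Its sum of 6 hepatocyte markers was 69480 CPM against 734 to 1101 in the other 5, and that of 5 neuron markers was 2938 against 4336 to 4929. The brain values that it changes are given with and without it or marked as resting on it. In a bulk sample fewer cells of a type and less RNA per cell cannot be told apart.

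Acyl-CoA thioesterases hydrolyse fatty acids that are bound to coenzyme A, which releases the free acid and coenzyme A and so opposes the acyl-CoA synthetases. The type I enzymes, Acot1 to Acot5 here, share an alpha/beta hydrolase fold and differ in their place in the cell, Acot1 in the cytosol, Acot2 in the mitochondrial matrix and Acot3, Acot4 and Acot5 in peroxisomes. The type II enzymes have a hotdog fold and are otherwise unlike each other. Acot7 is the cytosolic enzyme that is prominent in neurons, and Acot8 is peroxisomal. Acot11, also called Them1 or brown fat inducible thioesterase, and Acot12, a cytosolic enzyme that acts on acetyl-CoA in liver, carry a lipid-binding START domain, while the small protein Acot13, or Them2, associates with mitochondria.

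The type I genes lie side by side on the plus strand of chromosome 12 (GRCm38, GENCODE M21) in the order Acot2, Acot1, Acot4, Acot3 and Acot5, from base 83987861 to 84076020, a stretch of 88160 bases. They also share sequence, which matters for counting with short reads, of 50 bases in the bone marrow, spinal cord and warm experiment libraries. Of all 50-base words in the transcripts of Acot2, 24.55% also occur in Acot1, and 13.56% of those of Acot1 occur in Acot2. Such reads were not unique to either gene. By contrast no word of Acot7 (chr4:152178134-152271855) or Acot13 (chr13:24817948-24831540, minus strand) occurred in another gene. Acot11 (chr4:106744555-106804998, minus strand) shared 17.32% of its words with Fam151a, which overlaps it on the plus strand, Acot8 (chr2:164792765-164804882, minus strand) shared 9.77% with Snx21, also on the plus strand, and Acot12 (chr13:91741512-91786148, plus strand) shared 3.08% with 4833422C13Rik on the minus strand. Whether the counting used strand is not stated. If it did not, reads of these pairs could not be told apart where the genes overlap. Part of Acot3 and Acot4 overlaps the predicted genes Gm49366 and 4732463B04Rik.

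Promoters of Acot12, which rose in cold brown fat, and of 3 type I genes are printed here from 250 bases before to 50 bases after the start site. The warm libraries of these 3 lay below every control in brown fat and above every control in liver. Here and below, the share of all genes whose groups lie apart in this way was not counted. Those of Acot2 did so too, and its window, which held no marked match, is not printed. The promoters come from RefSeq on GRCm38.p6, plus strand, which held promoters for 9 of the 10 members. The windows are chr12:84009252-84009551 for Acot1, chr12:84051894-84052193 for the first of the Acot3 start sites, chr12:84038129-84038428 for Acot4 and chr13:91741271-91741570 for Acot12. Capitals mark AGGTCA, the half-site of many nuclear receptors, which reads TGACCT where it lies on the opposite strand.
Acot1: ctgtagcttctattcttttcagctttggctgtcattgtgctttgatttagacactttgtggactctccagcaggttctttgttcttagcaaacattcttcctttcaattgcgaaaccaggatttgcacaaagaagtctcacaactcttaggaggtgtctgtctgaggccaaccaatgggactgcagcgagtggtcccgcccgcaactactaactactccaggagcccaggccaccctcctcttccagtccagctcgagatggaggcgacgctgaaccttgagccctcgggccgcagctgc
Acot3: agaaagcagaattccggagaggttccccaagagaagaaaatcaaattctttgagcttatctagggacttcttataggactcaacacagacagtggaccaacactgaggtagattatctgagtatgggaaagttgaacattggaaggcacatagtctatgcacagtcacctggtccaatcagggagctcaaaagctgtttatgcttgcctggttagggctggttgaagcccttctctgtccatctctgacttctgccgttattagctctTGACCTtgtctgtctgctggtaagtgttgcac
Acot4: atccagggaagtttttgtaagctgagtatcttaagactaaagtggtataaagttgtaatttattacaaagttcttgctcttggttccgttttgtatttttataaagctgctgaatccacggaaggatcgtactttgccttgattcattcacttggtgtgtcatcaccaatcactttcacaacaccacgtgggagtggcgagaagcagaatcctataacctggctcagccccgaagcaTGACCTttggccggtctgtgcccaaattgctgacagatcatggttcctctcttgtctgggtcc
Acot12: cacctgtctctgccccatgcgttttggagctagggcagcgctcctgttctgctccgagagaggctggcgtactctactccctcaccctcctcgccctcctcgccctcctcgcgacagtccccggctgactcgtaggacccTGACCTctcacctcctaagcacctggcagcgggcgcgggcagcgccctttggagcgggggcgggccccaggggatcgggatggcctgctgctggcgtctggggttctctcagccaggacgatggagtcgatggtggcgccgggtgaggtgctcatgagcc

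AGGTCA was found in Acot3, Acot4, Acot5 and Acot12 and not in the windows of the other 5 members, with both strands searched. It started 13 bases before the start site in Acot4, 110 before it in Acot12 and 18 after it in the printed Acot3 window. The same letters occur in 16.26% of the 32851 promoters in the table, so a match is common. The direct repeat DR1, which is 2 copies of AGGTCA with any 1 base between them and is bound by PPAR alpha with its partner RXR, its looser form from 2 copies of AGGNCA, and the cyclic AMP element TGACGTCA occurred in 0.04%, 0.38% and 1.79% of all promoters and in none of the members' windows. These are matches of letters in a short window and say nothing about binding.

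**Figure D1:**
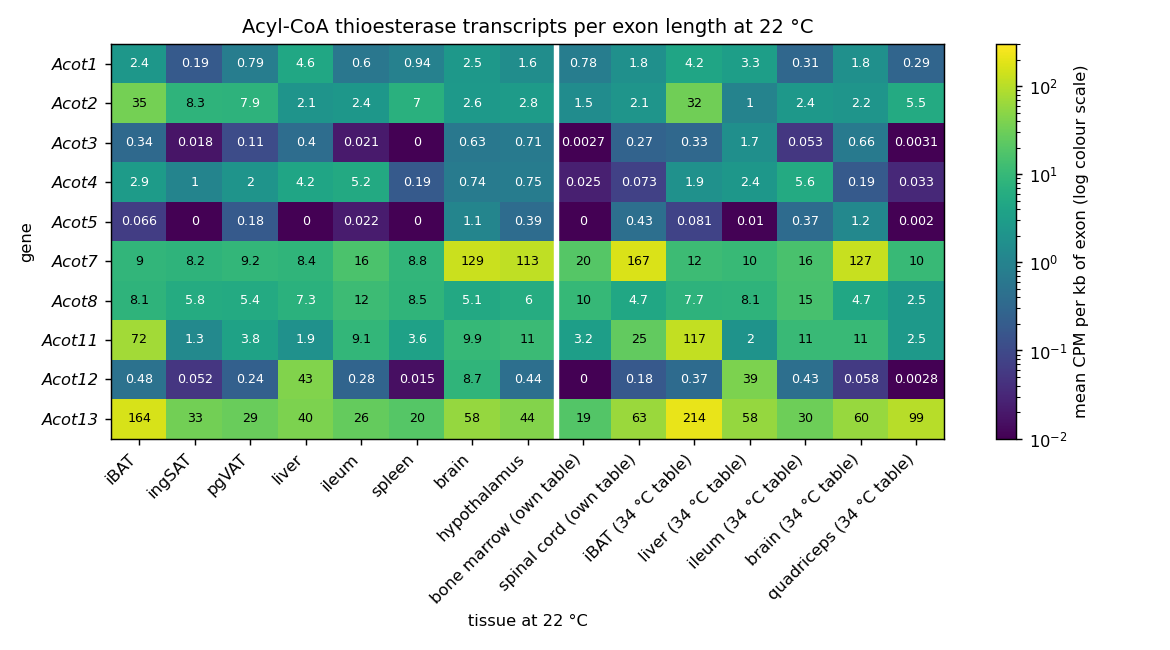
Mean CPM per kilobase of exon (colour, log scale, values printed in the cells) of the 10 thioesterases (rows) in each tissue at 22 °C (columns), with the 8 tissues of the shared table left of the white line. Acot7 leads in brain, hypothalamus and spinal cord, Acot13 and Acot11 lead in iBAT, and Acot12 stands high in liver. The Acot12 value of 8.67 in brain comes from the library of replicate 2.

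The family was used very unevenly by tissue, as the plot of CPM per kilobase shows. Levels between genes are compared here as CPM per kilobase of exon without further scaling, where the total over the 10 members at 22 °C was 294 in iBAT, 218 in brain (242.5 without replicate 2), 180 in hypothalamus, 111 in liver, 71.7 in ileum, 58.4 in pgVAT, 58.1 in ingSAT and 48.8 in spleen. Acot13 took the largest share at 22 °C in iBAT (55.8%), ingSAT (56.3%), pgVAT (50.5%), ileum (36.6%), spleen (40.3%) and quadriceps (82.4%). Acot7 did so in hypothalamus (62.5%), spinal cord (63.2%) and brain, where it took 57.3% with replicate 2 included, 65.4% without it and 60.8% in the controls of the warm experiment. Liver was divided between Acot12 (38.5%) and Acot13 (35.7%), with 30.9% and 46.1% in the controls of the warm experiment, and bone marrow between Acot7 (36%) and Acot13 (35.2%). Since only 744 bases of exon are annotated for Acot13, its share depends on that length.

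Between tissues of the shared table, Acot7, Acot8 and Acot13 reached 10 CPM in 8 of 8 tissues at 22 °C, while the mean of Acot5 reached 1 CPM only in brain and that of Acot3 reached 10 CPM in none. Acot11 was highest in iBAT, with 368 to 483 CPM in the 3 control libraries, above every library of hypothalamus (63.4 to 71.5), brain (29.8 to 77.1) and ileum (46.5 to 60.6), and brain overlapped the other two through replicate 2, without which it held 72.4 to 77.1. Liver (10.6 to 12.1) and ingSAT (3.17 to 11.1) had the lowest means and overlapped too. PgVAT ran from 5.78 to 55.4 CPM and overlapped both, and its mean of 22.7 rests on the high library of replicate 3. Acot12 was a gene of liver, at 136 to 144 CPM there and at most 2.15 CPM in iBAT, hypothalamus, ileum, pgVAT, ingSAT and spleen. In brain it was 84.3 CPM in replicate 2 and 0.641 at the lowest. Acot2 was highest in iBAT (43.1 to 129 CPM) and Acot4 in ileum (31.8 to 37.9), where it overlapped liver (21.9 to 39.8). Acot1 was highest in liver at 9.51 to 22.1 CPM and overlapped iBAT, and it overlapped brain through replicate 2 alone (8.10 to 8.19 without it), Acot8 was highest in ileum at 23.4 to 24.5 CPM, and Acot13 was highest in iBAT at 117 to 130 CPM. These orders are over 3 libraries each and were not tested.

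The genes whose mean log2 CPM over the 16 tissue and temperature groups of that table ran most like a member's were found by Pearson's r among 17377 genes, over libraries of the same table. They were Ndufa8 (r = 0.981), Ndufb10 (0.974) and Ndufv1 (0.973), subunits of mitochondrial complex I, for Acot13. For Acot7 they were Syt5 and Prepl (0.994 each) and Camk1g (0.993), which are known from neurons. Acot11 ran closest to Rhot2 (0.953), a mitochondrial transport protein, Mrpl46 (0.932), a mitochondrial ribosomal protein, and Cycs (0.910), which is cytochrome c. The nearest gene was Pdpr for Acot2 (0.976), Slco1a1, a liver transporter, for Acot12 (0.965), Rfx4 for Acot3 (0.954), Kirrel2 for Acot5 (0.988), Dhrs11 for Acot8 (0.945), Chdh for Acot4 (0.911) and Tmem56 for Acot1 (0.887). With the brain library of replicate 2 left out, all 10 nearest genes were the same.

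To describe which members moved with temperature, a gene is called here where its unadjusted p did not exceed 0.05 and its change exceeded 1.5-fold, the limits of the study, in edgeR's quasi-likelihood test, and an adjusted p is a Benjamini-Hochberg value over all genes tested. Genes with an average log2 CPM of 0 or less were not tested. Over the 11 comparisons at 10 °C, 82 of 110 pairs of member and comparison were tested, 6 were called higher and 4 lower, and 5 of these 10 also had an adjusted p under 0.05. Over the 5 comparisons at 34 °C, 39 of 50 pairs were tested, 5 were called higher and 6 lower, and 5 of these 11 had an adjusted p under 0.05. A member can pass the filter through the group in which it is high, so these counts are no measure of the family. Nothing is read from the counts beside the share of all genes called, since the members were chosen with these contrasts known.

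In iBAT at 10 °C 8 members were tested, with 2 called higher and 1 lower, where 13.2% of all tested genes were called, 6% higher and 7.24% lower, and 8.73% with an adjusted p under 0.05 as well. IngSAT had 7 tested and 2 higher, beside 16.3% of all genes called, 7.2% higher and 9.14% lower, and 6.62% by the adjusted p too. Quadriceps had 5 tested and 1 higher, beside 3.35% of all genes, 2.7% higher, 0.642% lower and 0.313% by the adjusted p too. The calls in these 3 tissues include every cold call of a member that had an adjusted p under 0.05. Ileum had 8 tested with 1 higher and 1 lower, beside 2.71% of all genes, 1.44% higher, 1.26% lower and 0.0639% by the adjusted p too. Spleen had 7 tested and 1 lower, beside 2.68% of all genes, 0.638% higher, 2.04% lower and 0.0779% by the adjusted p too. Brain had 10 tested and 1 lower, beside 2.72% of all genes, 0.27% higher, 2.45% lower and 0% by the adjusted p too.

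In the other 5 tissues at 10 °C none of the members tested was called. PgVAT had 7 tested, beside 7.94% of all genes called, 4.46% higher and 3.47% lower, and 0% by the adjusted p too. Liver had 9 tested, beside 3.28% of all genes, 0.74% higher, 2.54% lower and 0% by the adjusted p too. These 2 tissues had 1 and 2 members at an unadjusted p under 0.05 and any fold. Bone marrow had 6 tested, beside 1.29% of all genes, 0.647% in either direction and 0.926% by the adjusted p too. Spinal cord had 6 tested, beside 0.271% of all genes, 0.181% higher, 0.0904% lower and 0.00695% by the adjusted p too. Hypothalamus had 9 tested, beside 0.578% of all genes, 0.399% higher, 0.179% lower and 0% by the adjusted p too. Members at an unadjusted p under 0.05 and any fold numbered 3, 1 and 0 in these 3 tissues. With edgeR's exact test 1 member was called in pgVAT and with DESeq2 2, and 0 in the other 4 tissues with either.

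At 34 °C iBAT had 7 members tested and 5 called, all lower, where 19.4% of all genes were called, 12.2% higher and 7.19% lower, and 15.6% by the adjusted p too. Liver had 9 tested with 4 called higher and 1 lower, beside 3.38% of all genes, 1.77% higher, 1.61% lower and 0.385% by the adjusted p too. The warm calls of members were thus in these 2 tissues, apart from 1 in ileum. Ileum had 8 tested and 1 higher, beside 2.83% of all genes, 1.57% higher, 1.26% lower and 0% by the adjusted p too. None of 9 tested was called in brain, beside 0.193% of all genes, 0.0429% higher, 0.15% lower and 0% by the adjusted p too. None of 6 was called in quadriceps, beside 1.25% of all genes, 0.409% higher, 0.836% lower and 0% by the adjusted p too. Both had 0 members at an unadjusted p under 0.05, and 0 called by the exact test and by DESeq2. The median log2 fold change of the tested members was -1.12 in iBAT at 34 °C and 0.40 in liver, beside 0.02 and 0.01 over all genes tested. In ingSAT and iBAT at 10 °C it was 0.52 and 0.04, beside -0.01 and -0.02.

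**Figure D2:**
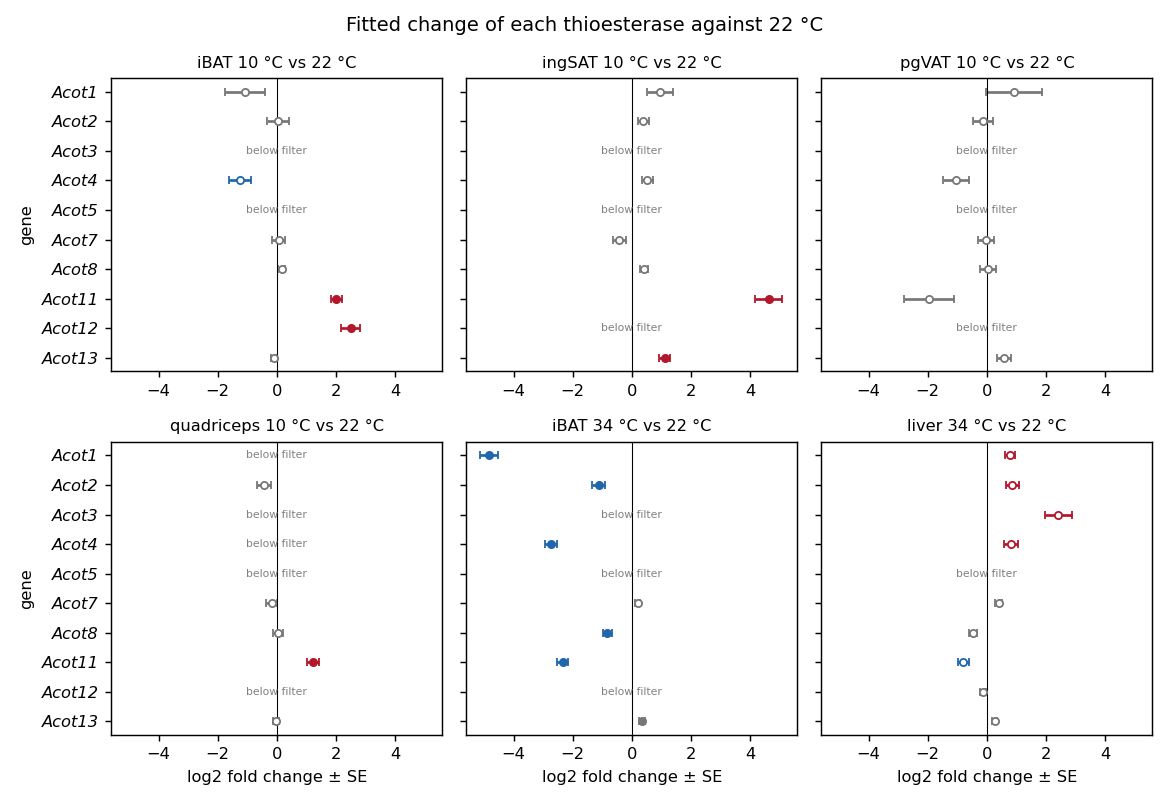
Fitted log2 fold change against 22 °C with its standard error (horizontal axis) for each thioesterase (vertical axis) in 6 comparisons. Red and blue points are called higher and lower, grey points are not called, filled points have an adjusted p under 0.05, and members below the filter have no point. IBAT at 34 °C has 5 blue points and liver at 34 °C 4 red points.

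Acot11 was called in more comparisons than any other member, higher in 3 tissues at 10 °C and lower in 2 at 34 °C, as the plot of Acot11 by library shows. In iBAT its 3 libraries held 418, 467 and 356 CPM at 22 °C (scaled with TMM, as all CPM from here on except CPM per kilobase) and 1431, 1903 and 1682 at 10 °C, 2.01 ± 0.17 higher on the log2 scale. Every cold library was above every control. In the same libraries 5 of 9 brown adipocyte markers were called higher, with a sum of 10983 to 16324 CPM at 22 °C and 16222 to 21817 at 10 °C, and 6 of 8 skeletal muscle markers were called lower, with a sum of 6532 to 9618 CPM and then 2612 to 5379. Epididymal markers summed to 0 in the controls and 2.78 to 31.2 CPM in the cold libraries, and the part of these markers in the change was not tested. In the separate warm experiment it held 733, 899 and 702 CPM at 22 °C and 123, 140 and 197 at 34 °C, a log2 fold change of -2.35 ± 0.2, and the groups again did not overlap. Both changes had an adjusted p under 0.05.

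**Figure D3:**
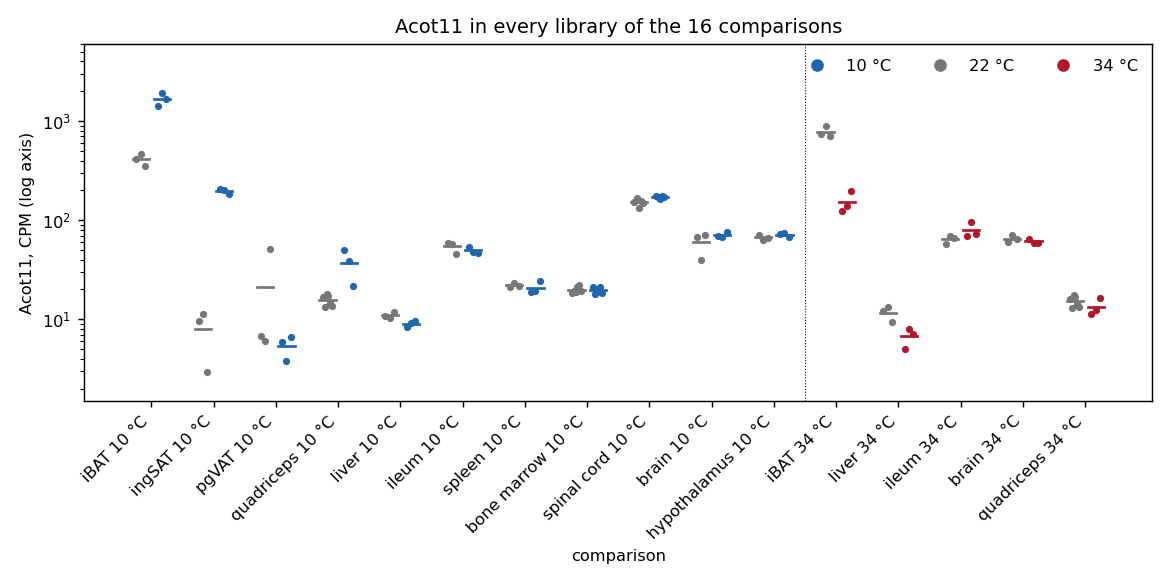
Acot11 in CPM (log axis) in each library of the 16 comparisons, with 10 °C in blue, 22 °C in grey and 34 °C in red, and a bar at each group mean. The cold libraries lie above the controls in iBAT, ingSAT and quadriceps, and the warm libraries lie below them in iBAT and liver.

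The make-up of the family in brown fat changed with temperature. Acot11 went from 24.7% of the family's CPM per kilobase (19.9% to 27.7% in the 3 libraries) at 22 °C to 57.6% (55.1% to 60.6%) at 10 °C, and Acot13 went from 55.8% to 30.7%. The total over the family, without TMM scaling, went from 294 to 452 CPM per kilobase. At 34 °C Acot11 went from 30% (26.8% to 34.1%) to 7% (6.24% to 8.35%) while Acot13 went from 54.8% to 82.8%, and the total without TMM scaling was 389 and 393. Per kilobase Acot13 was therefore ahead of Acot11 at 22 °C in both experiments, and in the cold Acot11 was ahead. This order depends on the annotated exon lengths, 744 bases for Acot13 and 6056 for Acot11. In CPM with TMM scaling Acot11 was ahead at 22 °C too, with means of 414 against 115 in the cold experiment and 778 against 174 in the warm one. The shares do not depend on this scaling, but the totals do. The mean log2 TMM factor differed from that of the controls by -0.158 at 10 °C and 0.272 at 34 °C. With TMM the cold total would thus be higher against its controls, and the warm total lower against its own.

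In ingSAT, where cold brings out thermogenic adipocytes, Acot11 held 9.64, 11.3 and 2.96 CPM at 22 °C and 204, 201 and 182 CPM in the cold, so that the log2 fold change was 4.63 ± 0.46 (with its standard error, as after every ± on the log2 scale) at an adjusted p under 0.05. No library of either group came near the other group. Brown adipocyte markers moved with it. The summed level of the 9 markers went from 410 to 589 CPM at 22 °C to 3152 to 3793 CPM at 10 °C, with Ucp1, the uncoupling protein, from at most 15.6 to at least 1120 CPM and 8 of the 9 called higher, while Zic1, a marker of classical brown fat, was at most 0.354 CPM in both groups. The part of cell makeup in the change of Acot11 was not tested.

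In pgVAT, where the calls depended on single libraries, Acot11 had 6.86, 6.09 and 51.2 CPM at 22 °C and 5.88, 3.79 and 6.64 CPM at 10 °C and was not called. Without control replicate 1, 2 members (Acot4 and Acot11, both lower) were called in pgVAT, without control replicate 2 it was 1 (Acot11), and without cold replicate 2 it was 3 (Acot1 and Acot13 higher, Acot4 lower). The high control was replicate 3, in which the brown marker sum was 660 CPM against 132 and 147 in the other controls and 149 to 370 in the cold libraries. Markers of epididymis were uneven as well, at 16138, 2.39 and 19763 CPM in the cold libraries and 579 to 2578 in the controls. The log2 effect of cold on Acot11 was larger in ingSAT than in pgVAT by 6.55 ± 0.95 in a fit of the 18 fat libraries, with an adjusted p under 0.05, where 0.159% of all genes were called in this way. Without pgVAT control replicate 3 the difference was 4.88 and still called. It was not called without ingSAT control replicate 1 (6.70), ingSAT cold replicate 3 (6.61) or pgVAT cold replicate 3 (6.70), nor with the replicate number as a block (6.07). The effects in iBAT and ingSAT differed by -2.59 ± 0.87 and those in iBAT and pgVAT by 3.96 ± 0.90, and neither was called at an adjusted p under 0.05, where 0.0691% and 0.407% of genes were.

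Quadriceps was the third tissue in which Acot11 was called higher in the cold. The 6 controls, which the labels place in a single group and which were used here for both temperatures, held 13.4 to 18 CPM (median 15.7). The cold libraries held 49.5, 38.4 and 21.9 CPM, a log2 fold change of 1.23 ± 0.20 with an adjusted p under 0.05. Every cold library was above every control, the last of them by little. Without cold replicate 1 the change was 0.96, and with any 1 library left out it ran from 0.96 to 1.49 and was called throughout by the limits of the study. The adjusted p was no longer under 0.05 without cold replicate 1, without cold replicate 2 (change 1.20), without any of 4 of the 6 controls, or with only the controls that share the name prefix of the cold libraries (change 1.20, adjusted p = 0.284). Cold replicate 1 also held 161 CPM of 5 epididymal markers, which were at most 0.0970 CPM in the other 8. A control stood apart too, with 2006 CPM of 6 pancreas acinar markers against at most 9.78 in the other 5 and 0.121 in the cold libraries, and 5 of the 6 were called lower. Without that control the change of Acot11 was 1.25 with an adjusted p under 0.05. The part of the epididymal markers in the result was not tested. Against the same controls the warm libraries held 11.4, 12.3 and 16.4 CPM, overlapping the controls, and were not called. Several brown adipocyte markers were higher in the same cold libraries. Ucp1 was 27.7 to 121 CPM there against 0.0485 to 6.95 in the controls and Elovl3, a fatty acid elongase of brown fat, 3.30 to 13.9 against 0 to 0.179, and of the 9 markers 8 were tested, 5 called higher and 1, Pdk4, lower (-1.14). The sum of all 9, most of it Pdk4, Cox8b and Cox7a1, which muscle also expresses, was 736 to 1261 CPM against 1172 to 1783. Of 7 general adipocyte markers 5 were called higher, with a median log2 change of 0.97 and sums of 442 to 1249 CPM against 288 to 810. Their part in the change of Acot11 was not tested.

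Acot11 was not called higher or lower elsewhere in the cold. It held 132 to 167 CPM (median 154) in the 5 spinal cord controls and 163 to 176 (median 172) in the cold, 18.3 to 22 (median 19.3) and 18.2 to 21.3 (median 19.2) in bone marrow, and 10.3 to 11.9 and 8.28 to 9.71 in liver, where every cold library lay below every control without reaching 1.5-fold. In warm liver it was 12.2, 13.3 and 9.32 CPM at 22 °C and 5.01, 7.93 and 7.18 at 34 °C, a log2 fold change of -0.79 ± 0.20 that was called without an adjusted p under 0.05. The warm libraries were all lower. The difference between the warm effects, iBAT minus liver, was -1.55 ± 0.30 log2 for Acot11 in a joint fit. It was past an adjusted p of 0.05, as 9.1% of all genes were.

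Acot12, the relative of Acot11 with the same START domain, rose in brown fat from a much lower level. It held 1.48, 0.95 and 2.08 CPM in iBAT at 22 °C and 9.99, 6.25 and 9.66 at 10 °C, a log2 fold change of 2.49 ± 0.31 with an adjusted p under 0.05. The groups were well apart, yet in the cold Acot12 made up 0.558% of the family's CPM per kilobase. In the same libraries 4 of 5 tested hepatocyte markers were called lower, all 4 with an adjusted p under 0.05, while their sum was 171 to 379 CPM at 22 °C and 118 to 174 at 10 °C. At 34 °C Acot12 was below the filter in iBAT, with 0.845, 1.19 and 2 CPM in the controls and 0.0471, 0.0703 and 0.117 in the warm libraries. Pooled, 136 counts at 22 °C stood against 9 at 34 °C, a level 18.5 times lower (exact 95% counting interval 9.46 to 41.3). In ingSAT, also below the filter, it had 0.0955, 0.0709 and 0.329 CPM at 22 °C and 0.911, 1.51 and 1.03 at 10 °C, or 7 against 46 counts, 6.61 times higher (2.97 to 17.4). These intervals cover counting error only.

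In liver, its main tissue, Acot12 stayed within 133 to 141 CPM at 22 °C and 136 to 159 at 10 °C, and within 113 to 140 and 108 to 120 in the warm experiment, with overlapping groups in both. For Acot12 the warm effect in iBAT minus that in liver was -3.96 ± 0.45 log2 in the joint fit, which it entered only through its level in liver, so this value is given as a description. The calls of Acot12 in 2 other tissues rested on single libraries. In brain at 10 °C it had 0.6, 112 and 0.681 CPM in the controls and 0.383, 0.820 and 0.516 in the cold libraries, and the fitted log2 fold change of -6.02 ± 2.34 came from replicate 2, the library with the hepatocyte markers. Without that library Acot12 was below the filter and 0 members were called in brain, and 0 were called without any of the cold libraries, while 2, Acot4 and Acot12, were called without control replicate 1 or 3. The same library was high in Acot1 (16.9 CPM against 6.73 to 8.53 in the other 5) and Acot4 (15.1 against 1.28 to 1.66) and low in Acot7 (196 against 295 to 315) and Acot11 (39.6 against 67.2 to 75.2).

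**Figure D4:**
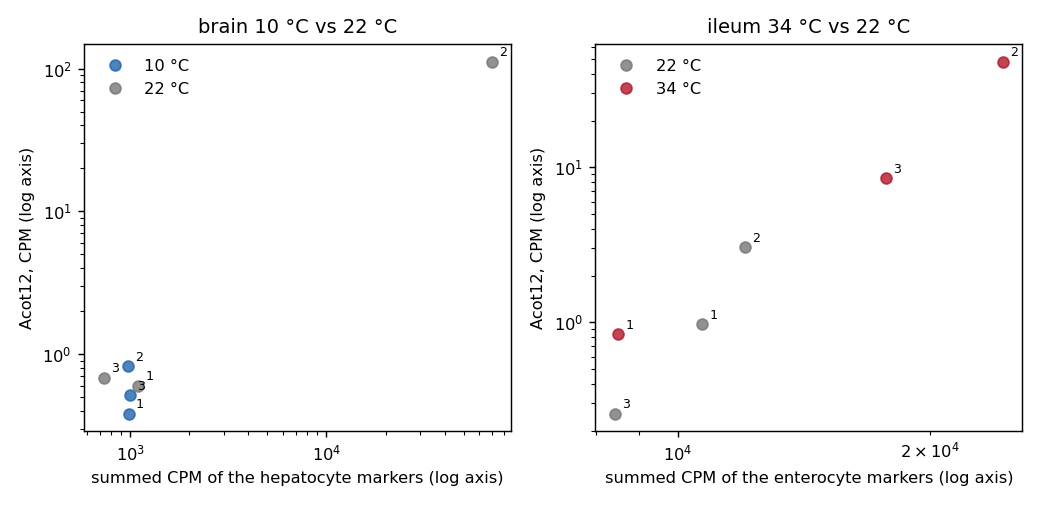
Acot12 in CPM (vertical log axis) against the summed CPM of hepatocyte markers in brain (left) and of enterocyte markers in ileum (right, both horizontal log axes), one point per library with its replicate number. The 22 °C brain library 2 and the 34 °C ileum library 2 are highest on both axes of their panel.

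In ileum at 34 °C Acot12 had 0.973, 3.04 and 0.258 CPM in the controls and 0.839, 48.0 and 8.52 in the warm libraries, and the groups overlapped. The plot of Acot12 against markers shows the same order for 6 enterocyte markers, whose sum was 8491, 24429 and 17725 CPM in the 3 warm libraries and 8420 to 12040 in the controls. The sum of 6 hepatocyte markers, most of it Apoa1, which enterocytes also express, was 7233, 10447 and 9092 CPM in the warm libraries and 6384 to 7649 in the controls, with Alb at most 0.384 CPM in the warm libraries and 1.96 in the controls. The log2 fold change of 3.75 ± 1.45 became 1.72 without warm replicate 2 and was then not called, nor was it without control replicate 1 (3.53) or 3 (3.25). The part of the markers in it was not tested. In ileum at 10 °C Acot12 was 0.757, 1.14 and 0.837 CPM in the controls and 1.36, 1.57 and 1.75 in the cold libraries, which were all higher. This change of 0.76 ± 0.26 was not called without control replicate 1 (0.66), control replicate 3 (0.70) or cold replicate 3 (0.67), and had no adjusted p under 0.05. The enterocyte marker sum was 6651 to 7212 CPM in these controls and 10983 to 11296 in the cold libraries, and its part in the change was not tested.

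Of the 5 type I genes on chromosome 12, the 3 that were tested in warm brown fat, Acot1, Acot2 and Acot4, were all called lower there. Acot1 had 21, 15.4 and 18.4 CPM at 22 °C and 0.777, 0.375 and 0.761 at 34 °C, a log2 fold change of -4.84 ± 0.29. Acot4 had 13.8, 12.5 and 14.5 CPM and then 1.81, 1.71 and 2.58 (-2.74 ± 0.20), and Acot2 80.1, 76.6 and 78.4 CPM and then 24.5, 48.8 and 34.5 (-1.12 ± 0.22). All 3 had an adjusted p under 0.05 and no overlap between the groups. Acot3 was below the filter, with 0.772, 0.980 and 1.94 CPM in the controls and 1 count in each warm library. Pooled, 125 counts at 22 °C stood against 3 at 34 °C, a level 51.0 times lower (exact 95% counting interval 17.05 to 250.6). Acot5 was barely seen, at 0 to 0.356 CPM in the controls and 0 in all 3 warm libraries.

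**Figure D5:**
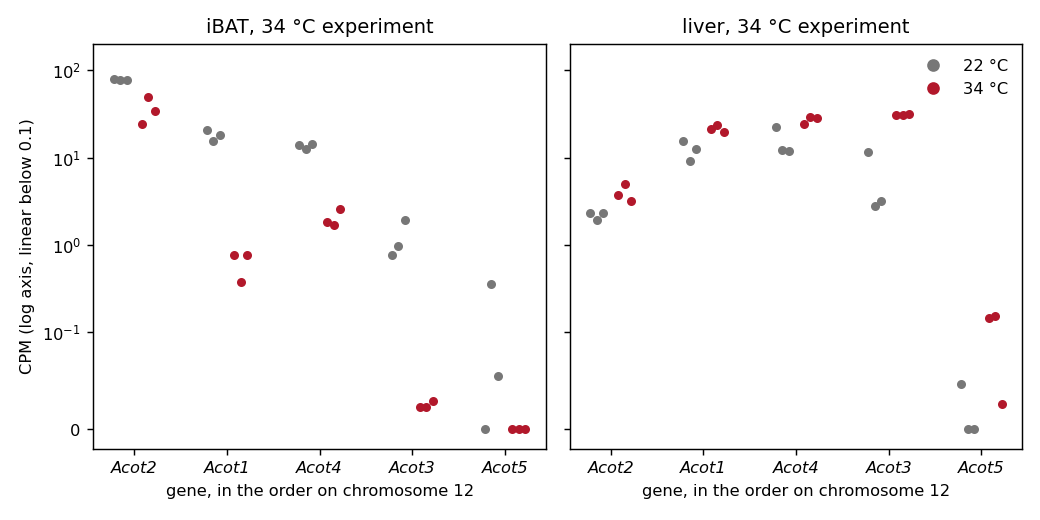
CPM (log axis, linear below 0.1) of the 5 type I thioesterases in the order in which they lie on chromosome 12, in each library of iBAT (left) and liver (right) of the warm experiment, with 22 °C in grey and 34 °C in red. For Acot2, Acot1, Acot4 and Acot3 the red points lie below the grey points in iBAT and above them in liver.

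In warm liver 4 of the 5 type I genes were tested and called higher, none with an adjusted p under 0.05. Acot3 had 11.5, 2.80 and 3.19 CPM at 22 °C and 30.7, 31.1 and 31.8 at 34 °C, a log2 fold change of 2.41 ± 0.46, and control replicate 1 was the high control. Acot1 went from 15.7, 9.12 and 12.6 CPM to 21.1, 23.6 and 19.7 (0.78 ± 0.18), and Acot4 from 22.6, 12.1 and 11.8 to 24.4, 29.4 and 28.3 (0.82 ± 0.23). Acot2 went from 2.30, 1.93 and 2.33 CPM to 3.75, 5 and 3.17 (0.86 ± 0.23). Every warm library was above every control for all 4 genes, which is a description, since the share of all genes lying apart in this way was not counted. Acot5 was below the filter, and its groups overlapped. The summed level of 6 hepatocyte markers was also higher, at 138450 to 145320 CPM against 98420 to 112140, and its part in these changes was not tested.

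The plot of the chromosome 12 genes shows the opposite directions in the 2 tissues. In the joint fit of the 12 libraries the warm effect in iBAT minus that in liver was -5.61 ± 0.35 log2 for Acot1, -3.56 ± 0.34 for Acot4 and -1.98 ± 0.32 for Acot2, and all 3 were called. So were 9.1% of all genes, and since the members were chosen with both contrasts known, these values are a description. The value for Acot3 was -7.82 ± 1.05. This value is a description as well, and Acot3 entered the fit only through its level in liver and had single counts in warm iBAT. Reads that fit both Acot1 and Acot2 are a limit on each of them alone, and their part in these changes was not tested. In warm iBAT Acot2 held 24.5 to 48.8 CPM and Acot1 was under 1 CPM. Brown adipocyte markers were lower in the same warm iBAT libraries, with a sum of 8236 to 9805 CPM against 14349 to 18467, and Ucp1 was 1230 to 1691 CPM against 5489 to 8241. Cidea, another marker, was 2770 to 3677 CPM against 3352 to 3558 and was not called, and the sum of 7 general adipocyte markers was 14062 to 16157 against 14975 to 17525. Their part in the fall of Acot1, Acot2 and Acot4 was not tested.

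In cold brown fat the type I genes gave a mixed picture, and 1 control decided much of it. Control replicate 3 was high in Acot1 (20.2 CPM against 3.43 and 3.18), Acot2 (125 against 39.0 and 54.4), Acot3 (2.54 against 0.234 and 0.559) and Acot4 (30.7 against 9.82 and 14.4), and its sum of brown adipocyte markers of 16324 CPM was above the 11848 and 10983 of the other controls. The cold libraries held 2.77, 6.45 and 3.88 CPM of Acot1 and 57.3, 92.8 and 73.9 of Acot2, and neither was called. Acot4, at 6.72, 8.01 and 8.58 CPM in the cold, was below every control and was called lower (-1.26 ± 0.37) without an adjusted p under 0.05. Without control replicate 3 its change was -0.65, and still called. The effects of the 2 experiments in iBAT were not tested against each other because they lie in different tables.

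Other type I changes were small or rested on low counts. In cold ingSAT Acot1 went from 0.859, 0.921 and 0.461 to 1.66, 1.01 and 1.7 CPM and Acot4 from 6.49, 6.02 and 8.17 to 8.94, 10.2 and 10.6, each with all cold libraries higher, and neither was called. In ileum at 10 °C Acot1 was 1.69, 2.86 and 2.36 CPM at 22 °C and 1.27, 1.20 and 1.25 in the cold (-0.89 ± 0.25), and in spleen Acot4 was 1.01, 1.69 and 1.05 CPM and then 0.414, 0.637 and 0.612 (-1.17 ± 0.34). In both the cold libraries were all lower, and in neither was the adjusted p under 0.05. Without spleen control replicate 2 Acot4 was below the filter there. All 5 neutrophil precursor markers were called lower in the same spleens, 3 with an adjusted p under 0.05, with sums of 87.5 to 172 CPM at 22 °C and 16.7 to 25.5 at 10 °C, and their part in the change of Acot4 was not tested. In bone marrow, with 1 mouse per library, Acot2 was 2.46 to 3.75 CPM (median 3.53) in the 6 controls and 3.70 to 5.50 (median 4.59) in the cold, a log2 fold change of 0.47 ± 0.14 that had an adjusted p under 0.05 but stayed under 1.5-fold, with 1 cold library inside the range of the controls. Acot1 and Acot4 in liver at 10 °C were not called, with Acot4 at 38.9, 21.5 and 22.4 CPM in the controls and 14, 20.9 and 21.5 in the cold. Acot5 was tested only in brain and Acot3 only in liver, brain and hypothalamus, and none of these tests at 10 °C or in brain at 34 °C gave a call.

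Of the remaining type II enzymes, Acot13 rose in cold ingSAT from 22.4, 19.8 and 31.3 to 48.0, 55.3 and 54.7 CPM (1.10 ± 0.19, adjusted p under 0.05), and the groups did not overlap. The adjusted p was not under 0.05 without control replicate 1 or 2 or cold replicate 2 or 3, though the call by the limits of the study held. In cold iBAT it had 118, 115 and 113 CPM at 22 °C and 108, 103 and 114 at 10 °C, and was not called. The cold effect in iBAT minus that in ingSAT was -1.16 ± 0.23 log2, without an adjusted p under 0.05. In warm iBAT it had 171, 166 and 187 CPM at 22 °C and 204, 219 and 238 at 34 °C, a change of 0.34 ± 0.10 with an adjusted p under 0.05 that stayed under 1.5-fold. Scaling by library size moved all genes of this comparison by about 0.27 log2, and Acot13 then changed by 0.61 and was called.

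Acot8 fell in warm iBAT, from 17, 20.1 and 13.7 CPM to 9.51, 9.66 and 9.31 (-0.83 ± 0.15, adjusted p under 0.05), with all warm libraries lower. With library size only it fell by 0.56 and was not called. In warm liver Acot8 was lower (-0.47 ± 0.15) and Acot7 (0.40 ± 0.11) and Acot13 (0.26 ± 0.09) were higher without overlap between the groups, all under 1.5-fold and not called. Acot7, the neuronal enzyme, was called in no comparison. It held 331 to 379 CPM (median 353) in spinal cord at 22 °C and 351 to 430 (median 358) at 10 °C, and 217 to 252 and 219 to 232 in hypothalamus. In bone marrow it was 36 to 46.7 CPM (median 44.5) in the controls and 31.3 to 38.6 (median 35.8) in the cold, a change of -0.25 ± 0.07 with an adjusted p under 0.05, well under 1.5-fold and with overlapping groups. Marker sums differed between the same groups without overlap, at 8020 to 10199 CPM at 22 °C and 10477 to 13408 at 10 °C for erythroid precursors and 12615 to 17284 and then 11602 to 12416 for neutrophil precursors, with none of the markers called. Their part in the values of Acot2 and Acot7 was not tested.

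Genes that work beside the thioesterases were read from 4 lists of other thioesterases, acyl-CoA synthetases, genes of coenzyme A supply and breakdown, and targets of PPAR alpha. Pdk4 is in both the PPAR alpha list and the brown marker list. In cold iBAT, where 6% of all genes were called higher and 7.24% lower, 6 of 14 tested synthetases were called higher and 1 lower. Acsl5, which activates long-chain fatty acids, rose from 541 ± 123 to 2171 ± 427 CPM (SD, n = 3 each), a log2 fold change of 2.01 ± 0.22 (adjusted p = 0.0012, edgeR), and Aacs, the cytosolic acetoacetyl-CoA synthetase, rose by 1.59 ± 0.26 (adjusted p = 0.0066, edgeR). Acsm3 fell by 0.69 (adjusted p = 0.0258, edgeR). Of 9 tested genes of coenzyme A supply and breakdown 4 were higher, among them Nudt19 (0.72 ± 0.11) and Nudt7 (0.70 ± 0.17), peroxisomal enzymes that degrade coenzyme A. Of 4 tested other thioesterases Them4 was called (0.69 ± 0.14, adjusted p = 0.0135, edgeR).

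PPAR alpha targets were divided in cold iBAT, with 2 of 20 higher and 4 lower. Plin2, a lipid droplet coat protein, rose by 1.29 ± 0.17, while Fabp1 went from 2.74 ± 0.92 CPM (SD, n = 3) to 0 in all 3 cold libraries. Fabp1 is also abundant in hepatocytes, whose markers were lower in these libraries, as given above, and their part in it was not tested. In cold ingSAT, where 7.2% of all genes were called higher and 9.14% lower, 11 of 20 were higher and 4 lower. Fabp3, a fatty acid binding protein of muscle and brown fat, rose there by 4.43 ± 0.21 and Cpt1b, which brings fatty acids into mitochondria, by 2.97 ± 0.22, beside the rise of the brown markers given above. Of the other lists in ingSAT, 5 of 14 synthetases were higher and 1 lower, 5 of 9 genes of coenzyme A supply and breakdown were higher, with Pank1, the rate-limiting pantothenate kinase, up by 2.42 ± 0.20, and 1 of 4 other thioesterases, Them4, was higher without an adjusted p under 0.05.

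In warm iBAT, where 12.2% of all genes were called higher and 7.19% lower, 8 of 12 tested synthetases were lower and none was higher. Acsl5 went from 656 ± 116 to 130 ± 33.5 CPM (SD, n = 3 each), a change of -2.33 ± 0.21 (adjusted p = 0.0011, edgeR), and Acss2, which makes acetyl-CoA from acetate, changed by -1.97 ± 0.41. Of the genes of coenzyme A supply and breakdown 5 of 9 were lower, with Pank3 at -0.98 ± 0.13, and Them4 was the 1 of 4 other thioesterases called (-0.78 ± 0.14). Of 19 PPAR alpha targets 9 were lower and 2 higher. Ehhadh and Acaa1b, enzymes of peroxisomal beta-oxidation, changed by -2.85 ± 0.25 and -2.35 ± 0.33, and Angptl4, a secreted inhibitor of lipoprotein lipase, and Vnn1 rose by 1.16 ± 0.23 and 1.27 ± 0.28. Brown markers were lower in these libraries, as given above.

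In warm liver 0 of 22 tested PPAR alpha targets were called higher and 2 lower, beside 1.77% of all genes higher and 1.61% lower. The 2 were Angptl4 (-0.97 ± 0.23) and Cyp4a31 (-0.82 ± 0.30, with overlapping groups), neither with an adjusted p under 0.05 in edgeR's test. The part of PPAR alpha in the changes of the type I genes was not tested. The median of the 22 was -0.13 log2, beside 0.01 over all genes. Among 13 synthetases 2 were higher, Acsl3 (0.65 ± 0.26, with overlapping groups) and Aacs (0.59 ± 0.18), neither with an adjusted p under 0.05. Acsm2 was lower (-2.17 ± 0.35, adjusted p = 0.0492, edgeR), at a level near the filter, from 1.79 ± 0.28 to 0.40 ± 0.17 CPM (SD). Nudt7 changed by -0.76 ± 0.13, without an adjusted p under 0.05, and was the 1 of 9 genes of coenzyme A supply and breakdown called. None of the 4 other thioesterases tested was called there.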

How the data were processed

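The mRNA of the 11 tissues was sequenced by the authors. Bone marrow, spinal cord and the libraries of the warm experiment were made with a stranded kit and read at 50 bases, and for all other tissues another kit was used, with a read length not given in the sources used here. The deposited values are raw counts per gene, not normalised. The submitters' processing notes name STAR 2.5.3a, Picard 1.141, HTSeq 0.6p1 and mm10, whereas the methods give STAR 2.6.0c and HTSeq 0.9.1. The strand setting of the counting is not given in the sources used here, and reads shared by related genes can be lost or split. Of 21647 gene IDs in the table of 8 tissues, 21583 were matched to symbols. Totals ranged from 4262403 to 62880248 counts per library.

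Each 10 °C or 34 °C group was compared with its own 22 °C libraries with the quasi-likelihood test of edgeR 4.0.16 in R 4.3.3, with TMM scaling and genes of average log2 CPM above 0, each comparison on its own libraries. Differences between tissues were fitted as interactions and called at an adjusted p under 0.05. Alternatives were the exact test, DESeq2 1.42.0, scaling by library size, other filters, a replicate block and leaving out each library. For quadriceps, controls whose names share the prefix of the test group were an alternative chosen after seeing the data. The scripts were tested on simulated data. The members and lists were chosen with earlier results of these data known. The genes named are the 10 members, from each of 4 lists up to 2 called genes per direction with the largest change (not every comparison is described, and 1 gene this rule names is not reported here), the 3 nearest genes by pattern (the nearest alone for some members) and marker genes shown beside a result. Where the labels do not separate cultures or cages, p-values measure the spread between these libraries. Columns of the warm and quadriceps table, and 1 control column of spinal cord, name a tissue and temperature but not a single labelled sample, so they were mapped by group. All samples' labels carry the 34 °C protocol text, and temperatures were taken from the groups. Warm ingSAT and pgVAT were not analysed here.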

Additional observations from a re-analysis of the deposited data

Results flagged for a closer look

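In 2 of 29 sets of values, each of 1 member in a group of 4 to 10 libraries, a single library lay far from the others, both times for Acot7, and chance alone gives such a value in about 1 in 20 sets. In the quadriceps controls 1 library held 34.62 CPM of Acot7 where the other 5 held 19 to 22.4, and in spinal cord at 10 °C replicate 4 held 430.4 CPM where the other 4 held 351 to 371.

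In joint fits of 2 or 3 tissues the fitted effect of temperature on several members differed between tissues. The members were chosen with these contrasts known, so these values and their calls are a description. The cold effect on Acot11 was higher in ingSAT than in pgVAT by 6.55 log2, where 0.159% of all genes were called. The difference was not called with the replicate number as a block (6.07) or in 3 of 18 fits with a library left out. Over those 18 fits it ran from 4.88 to 7.04. The warm effect in iBAT minus that in liver was -5.61 log2 for Acot1, -1.98 for Acot2, -7.82 for Acot3, -3.56 for Acot4, -1.55 for Acot11 and -3.96 for Acot12. In that fit 9.1% of all genes were called. For Acot1, Acot2, Acot3 and Acot4 the fitted effects in the 2 tissues had opposite signs, and Acot11 was called lower in both. Acot3 and Acot12 were below the filter in iBAT alone and entered the joint fit through their level in liver, which is a further limit on these 2 values. The value for Acot3 rests on 1 count in each warm iBAT library.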

How the results depend on the processing

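No change of a member that was called reversed its direction under any alternative run, and members that were not called were not followed in this way. Of 151 values for single members under other settings 135 kept their call and 16 lost it, and of 219 with a library left out 205 kept it and 14 lost it, 2 of them because the member was then below the filter (Acot4 in spleen without control replicate 2 and Acot12 in brain without control replicate 2). An adjusted p under 0.05 in place of the limits of the study left 0 members in ileum at both temperatures, spleen, brain at 10 °C and liver at 34 °C, and gave 2 in bone marrow. The exact test called 1 member in pgVAT and 2 in brain at 10 °C, and DESeq2 called 2 in pgVAT and 1 in ileum at 10 °C. Scaling by library size called 1 in pgVAT and 1 in liver at 10 °C. It leaves out the TMM factors, whose mean log2 differed between the test group and the controls. That difference was -0.158 in iBAT at 10 °C, 0.15 in quadriceps at 10 °C, 0.142 in brain at 10 °C and 0.272 in iBAT at 34 °C. Without the filter the count was 4 in ingSAT, 2 in pgVAT, 2 in quadriceps at 10 °C and 8 in iBAT at 34 °C, where more genes were tested, and filterByExpr gave 2 in quadriceps at 10 °C. Using the quadriceps controls of each set of label numbers alone was not run, since the columns do not carry these numbers. With only the controls that share a name prefix, 1 member was called in quadriceps at 10 °C and 0 at 34 °C. The cause of the other moves was not tested.

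With a library left out, the count of members called ran from 3 to 4 in iBAT at 10 °C, 2 to 3 in ingSAT, 0 to 3 in pgVAT, 1 to 2 in quadriceps, 0 to 2 in liver, 1 to 2 in ileum, 0 to 1 in spleen and 0 to 2 in brain at 10 °C. At 34 °C it ran from 5 to 5 in iBAT, 5 to 6 in liver, 0 to 2 in ileum and 0 to 1 in quadriceps. For differences between tissues it ran from 0 to 2 in each pair of fat depots and 6 to 6 for iBAT against liver, Acot3 and Acot12 included.

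With the replicate number as a block, 0 members were called in brain at 10 °C, where Acot12 changed by -2.99, and 0 in ingSAT against pgVAT, where the difference for Acot11 was 6.07. The numbers did not pair the libraries: the deviations of same-numbered libraries correlated at -0.695 to 0.47 over 34 pairs, 13 of them above 0.1, and in 9 pairs the libraries correlated best with their own number. No blocked fit was run for quadriceps or the warm comparisons, because the sample labels there give no number that groups share and the numbers in the column names cannot be tied to labelled samples. Low counts limit Acot3, Acot5 and Acot12 outside their main tissues.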

Other observations

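In pgVAT at 10 °C 3 of 15 tested acyl-CoA synthetases were called higher, among them Acss2, which makes acetyl-CoA from acetate, from 115 ± 18 to 442 ± 153 CPM (SD, n = 3 each, log2 fold change 1.95 ± 0.35) and Acsl3, a long-chain synthetase of lipid droplets, from 16.5 ± 1.52 to 45.1 ± 6.89 CPM (1.45 ± 0.22), neither with an adjusted p under 0.05 in edgeR's test. Both were above every control in all 3 cold libraries. Of all genes tested at 10 °C, 4.46% were called higher and 3.47% lower in pgVAT, and 2.7% higher and 0.642% lower in quadriceps. In quadriceps at 10 °C 6 of 12 synthetases were called higher and none lower, with Aacs going from 8.92 ± 3.07 CPM (SD, n = 6) to 35.6 ± 15.5 (n = 3), a log2 fold change of 2 ± 0.33 (adjusted p = 0.0343, edgeR), in the libraries in which Acot11 was higher, with 5 brown adipocyte markers called higher and 1 lower and 5 of 7 general adipocyte markers called higher.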
